A study of Homo sapiens with 4 samples.

Results

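The genes of the epidermal growth factor (EGF) receptor family and their ligands were followed in triple-negative breast cancer (TNBC) cells given mebendazole (MBZ). The 10 genes were taken by name as the rows of the count table whose Ensembl identifiers map to the receptors EGFR, ERBB2 and ERBB3 and to the ligands AREG, EREG, HBEGF, TGFA, BTC, EPGN and NRG1. They are 10 of the 58735 rows. The cells were the human TNBC lines MDA-MB-231 and SUM159, MBZ is an anthelmintic drug that binds tubulin, and dimethyl sulfoxide (DMSO) is its solvent. RNA was sequenced from each line after 72 h with 1 µM MBZ or with DMSO alone, in 1 library for each of the 4 conditions. The counts summed to 24897586 (DMSO) and 17143139 (MBZ) in MDA-MB-231, and to 18708179 (DMSO) and 18904501 (MBZ) in SUM159.

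The receptors of this family are tyrosine kinases of the cell surface that pair when a ligand binds. EGFR binds AREG, EREG, HBEGF, TGFA, BTC, EPGN and EGF, while ERBB3 and ERBB4 bind neuregulins such as NRG1, and ERBB2 has no known soluble ligand and acts as a partner of the others. The ligands are made as membrane proteins and are released by proteases of the ADAM family, after which the receptors signal through RAS, RAF, MEK and ERK, through PI3K and AKT, and through STAT3. TNBC is defined by a lack of the oestrogen and progesterone receptors and of ERBB2 amplification, and many such tumours and lines express EGFR.

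Fold changes are MBZ over DMSO within a line, after scaling by edgeR's TMM method over the 2 libraries of that line, with log2 changes their log2 values, and 1.5-fold was the size past which a gene is called higher or lower. Only genes that averaged 10 or more counts in the pair were compared. With 1 library per condition no fold change has a replicate check. The 95% intervals follow Clopper and Pearson, on the MBZ library's share of a gene's reads, and they cover counting error only. Scaling by total counts in place of TMM would lift the median gene by 0.27 in MDA-MB-231 and by 0.30 in SUM159 on the log2 scale, so that changes near 0 depend on this choice. Levels are compared between genes as RPKM (reads scaled to exon length and to library size, with TMM over the 4 libraries).

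The labels of the lines were checked against markers. PGR, the progesterone receptor gene, had 0 counts in all 4 libraries, and ESR1, the oestrogen receptor gene, had 1 and 0 counts in MDA-MB-231 and 2 and 18 in SUM159 with DMSO and MBZ. The epithelial cadherin gene CDH1 had 11 and 12 counts in MDA-MB-231 and 0 in both SUM159 libraries, and VIM, the gene of the mesenchymal filament protein vimentin, had between 20703 and 54409 counts in the 4 libraries. ERBB2, also among the receptor markers, was not near 0, with 1996 and 1353 counts in MDA-MB-231 and 1826 and 1216 in SUM159. Its amplification was not measured. Both lines thus had ESR1, PGR and CDH1 at or near 0 beside abundant VIM, and had ERBB2 reads. Other luminal markers were not absent. The keratin KRT18 had 10874 and 5393 counts in MDA-MB-231 and 4197 and 4254 in SUM159, the transcription factor GATA3 171 and 179 in MDA-MB-231 and 302 and 121 in SUM159 (a log2 change of -1.63, interval -1.95 to -1.33), EPCAM 144 and 190 in MDA-MB-231 and 6 and 9 in SUM159, and FOXA1 0 and 5 in MDA-MB-231 and 46 and 41 in SUM159. The luminal keratin KRT19 separated the lines, with 12386 and 6608 counts in MDA-MB-231 and 1 and 13 in SUM159. Among markers of other cells, the leukocyte gene PTPRC had 8 and 23 counts in MDA-MB-231 and 216 and 60 in SUM159, the endothelial gene PECAM1 between 328 and 825, VWF at most 21, and CD3E and ALB at most 2. PTPRC was highest in SUM159 with DMSO, the library with the lowest ligand levels, and its part in the results was not tested.

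In MDA-MB-231, 3 of the 9 family genes compared were higher with MBZ (EGFR, EREG and NRG1), where 18.3% of 15142 genes were higher, and 0 were lower, where 15.8% of genes were lower. In SUM159, 6 of the 8 compared were higher (ERBB3, AREG, EREG, HBEGF, TGFA and NRG1), where 21.5% of 15674 genes were higher, and 1 was lower (ERBB2), where 21.7% were lower. These shares describe the family and test nothing. Of the 7 ligand genes, 5 of the 5 compared were higher in SUM159 and 2 of the 6 compared in MDA-MB-231. The median log2 change of the family genes compared was 0.025 in MDA-MB-231 and 1.64 in SUM159, against -0.018 and -0.034 for all genes. BTC in SUM159 and EPGN in both lines had too few counts to be compared. With scaling by total counts MDA-MB-231 had 4408 higher and 1146 lower genes and SUM159 had 5135 and 2004, while the numbers of family genes past 1.5-fold were the same. By counting intervals clear of 0, in place of 1.5-fold, MDA-MB-231 had 3 family genes above 0 and 2 below, where 30.5% and 35.3% of all genes were, and SUM159 had 6 above and 2 below, where 31.5% and 37% were. By such intervals EGFR and TGFA, 2 of the 8 family genes compared in both lines, moved in opposite directions in the lines, where 20% of 13733 genes did so, and with scaling by total counts 0 did, where 19.1% of genes did.

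**Figure D1:**
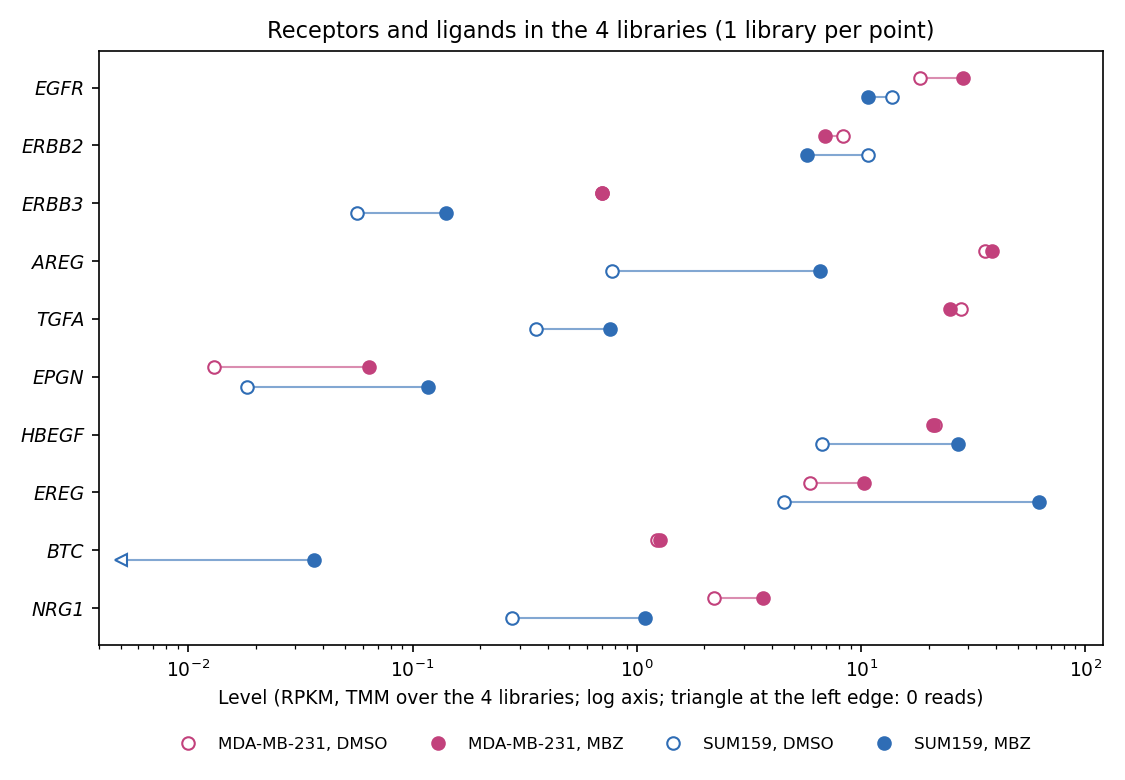
Level of each receptor and ligand gene in the 4 libraries, in RPKM on a log axis, with open points for DMSO and filled points for MBZ and 1 library per point. The ligands AREG, EREG, HBEGF, TGFA and NRG1 of SUM159 move to the right with MBZ, EREG from 4.53 to 61.8 RPKM, while AREG, HBEGF and TGFA of MDA-MB-231 stay close to their level with DMSO.

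EGFR (ENSG00000146648, chromosome 7 from 55019017 to 55211628 of GRCh38, 28 exons in its canonical transcript) had 6814 reads under DMSO and 8607 under MBZ in MDA-MB-231, and 3616 and 3520 in SUM159. MDA-MB-231 had more EGFR reads than SUM159 with either treatment. After scaling, EGFR was 1.53-fold higher with MBZ in MDA-MB-231, a log2 change of 0.61 (interval 0.56 to 0.66). This lies just past 1.5-fold, and with DESeq2's size factors the log2 change was 0.56, just short of it. In SUM159 the log2 change of EGFR was -0.36 (interval -0.42 to -0.29), and with scaling by total counts it was -0.054, where the interval of -0.12 to 0.013 included no change. The antisense gene EGFR-AS1 shares 186 exonic bases with EGFR and had at most 6 counts in a library.

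ERBB2 (ENSG00000141736, chromosome 17 from 39687914 to 39730426, 27 exons), the partner receptor, had 1996 reads under DMSO and 1353 under MBZ in MDA-MB-231, and 1826 and 1216 in SUM159. These reads are not scaled to depth. After scaling, its level with DMSO was 85.9 CPM (counts scaled to library size, with TMM over the 4 libraries) in MDA-MB-231 and 110.2 in SUM159, and with MBZ 71.2 and 59.0. ERBB2 was 1.87-fold lower with MBZ in SUM159, a log2 change of -0.90 (interval -1.01 to -0.80). In MDA-MB-231 its log2 change was -0.29 (interval -0.39 to -0.19), short of 1.5-fold, and it was -0.023 with scaling by total counts. ERBB2 shares 571 exonic bases with MIEN1 and 144 with PGAP3, both on the opposite strand, and whether the counting used strand is not given in the sources used here. The log2 changes of MIEN1 were -0.042 in MDA-MB-231 (0.22 with scaling by total counts) and 0.23 in SUM159. Those of PGAP3 were -0.46 (interval -0.77 to -0.16) and -0.43 (interval -0.79 to -0.066), below 0 in both lines as for ERBB2. With scaling by total counts those of PGAP3 were nearer to no change, at -0.20 and -0.13. The part of shared reads was not tested.

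ERBB3 (ENSG00000065361, chromosome 12 from 56076799 to 56103505, 28 exons), which has little kinase activity of its own and couples the family to PI3K, had 191 reads under DMSO and 156 under MBZ in MDA-MB-231, and 11 and 34 in SUM159. It was scarce in SUM159 with either treatment. The rise there was 2.47-fold, a log2 change of 1.30 with a wide interval of 0.30 to 2.44. In MDA-MB-231 the interval of -0.33 to 0.29 included no change. A gene model on the same strand shares 31 exonic bases with ERBB3 and has its own row in the count table. The part of shared reads was not tested for ERBB3. ERBB4, the other neuregulin receptor, had 8 and 0 counts in MDA-MB-231, where 0 reads leave room for a level of up to 0.175 CPM by total counts alone, without TMM, and 18 and 10 in SUM159. In MDA-MB-231 it had too few counts to be compared, with an upper limit of -0.50 for its log2 change. In SUM159 its log2 change of -1.15 was past 1.5-fold lower, but the interval of -2.44 to 0.03 included no change.

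EGFR was the most abundant receptor transcript per length in each library. It stood at 18.4 RPKM under DMSO and 28.4 under MBZ in MDA-MB-231, and at 13.7 and 10.7 in SUM159. ERBB2 stood at 8.32 and 6.90 RPKM in MDA-MB-231, and at 10.7 and 5.71 in SUM159. The balance between the receptors moved towards EGFR in both lines. The ratio of EGFR to ERBB2, in RPKM, was 2.21 under DMSO and 4.12 under MBZ in MDA-MB-231, and 1.28 and 1.87 in SUM159. This ratio within a library does not depend on the scaling. EGFR made up 67.0% and 78.9% of the RPKM of the 4 receptor genes in MDA-MB-231, and 55.9% and 64.5% in SUM159.

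**Figure D2:**
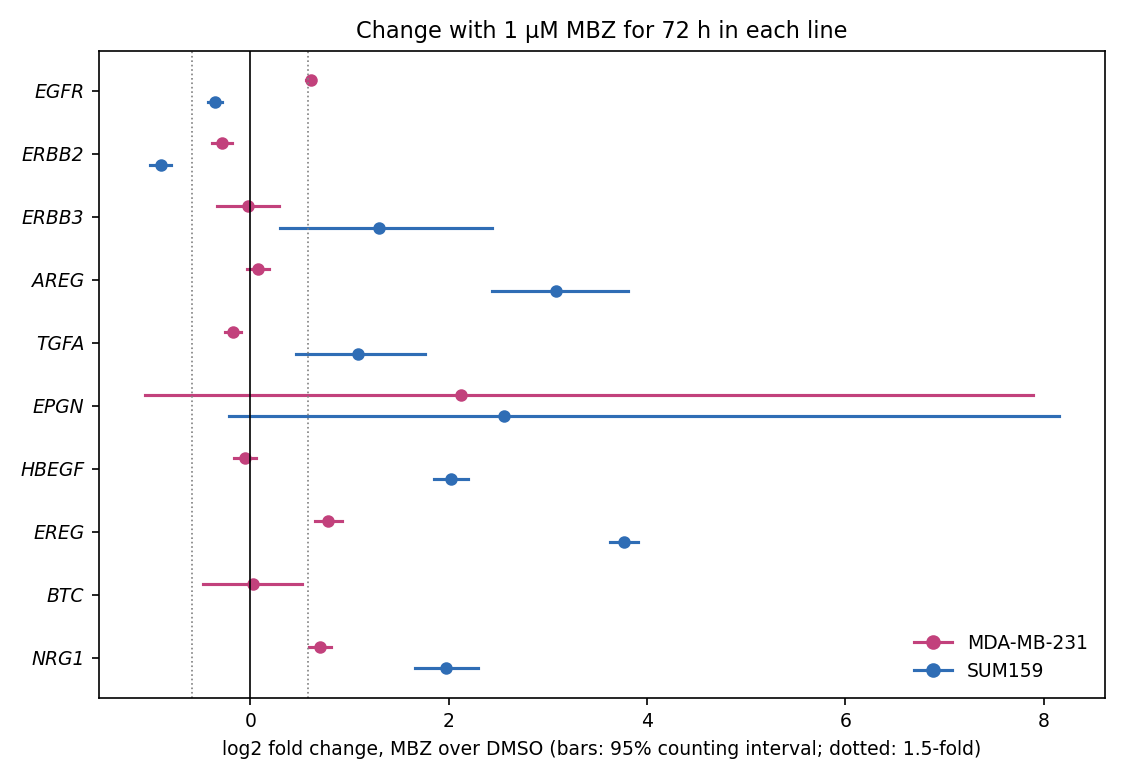
Log2 fold change of each receptor and ligand gene with MBZ over DMSO in each line, with 95% counting intervals as bars and 1.5-fold as dotted lines. EREG, AREG, HBEGF and NRG1 of SUM159 lie between 1.97 and 3.77, EGFR lies above 0 in MDA-MB-231 and below it in SUM159, the intervals of EPGN span most of the axis, and BTC of SUM159 has no fold change. TGFA of MDA-MB-231 lies at -0.17 here and at 0.093 with scaling by total counts.

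Among the ligands with enough counts to be compared, EREG, AREG, HBEGF and NRG1 had the largest changes, all in SUM159, and the promoters of EREG, AREG and HBEGF are shown because these genes moved together there. The 4 ligand genes EPGN, EREG, AREG and BTC form a cluster of 486.1 kb on chromosome 4, in this order, with gaps of 48.4, 56.4 and 289.8 kb and 0 other protein-coding genes in the gaps. The sequences run from 250 bases before to 50 after the start site, come from RefSeq on GRCh38.p14, and read 5′ to 3′ on the gene's own strand. AREG lies at chr4:74444886-74445185 and EREG at chr4:74364895-74365194, both on the plus strand, and HBEGF at chr5:140346554-140346853 on the minus strand. Capitals mark matches, on either strand, to the AP-1 motif TGANTCA, the cAMP response element TGACGTCA, its shorter form TGACG (which is part of it), the E-box CACGTG and the GC box GGGCGG.
AREG: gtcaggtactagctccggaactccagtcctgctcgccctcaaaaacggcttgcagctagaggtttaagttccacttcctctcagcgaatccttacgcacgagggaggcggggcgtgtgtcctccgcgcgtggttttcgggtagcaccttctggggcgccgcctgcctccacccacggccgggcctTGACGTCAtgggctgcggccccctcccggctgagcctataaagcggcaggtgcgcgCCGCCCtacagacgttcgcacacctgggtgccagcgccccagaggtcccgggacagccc
EREG: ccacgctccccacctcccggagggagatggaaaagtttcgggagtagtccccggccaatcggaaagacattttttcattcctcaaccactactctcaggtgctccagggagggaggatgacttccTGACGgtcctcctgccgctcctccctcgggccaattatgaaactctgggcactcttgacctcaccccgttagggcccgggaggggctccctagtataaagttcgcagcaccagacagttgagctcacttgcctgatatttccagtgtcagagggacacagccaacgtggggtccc
HBEGF: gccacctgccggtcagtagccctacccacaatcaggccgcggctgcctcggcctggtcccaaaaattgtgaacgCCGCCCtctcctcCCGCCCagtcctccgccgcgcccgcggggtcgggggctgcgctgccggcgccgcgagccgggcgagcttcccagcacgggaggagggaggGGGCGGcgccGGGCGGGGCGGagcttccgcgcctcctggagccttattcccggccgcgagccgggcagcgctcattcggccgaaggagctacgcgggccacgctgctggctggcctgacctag
The motifs differed between the promoters. AREG held TGACGTCA from position -65, counted from the start site, and 1.85% of 35116 promoter windows of 300 bases hold it. EREG held the shorter TGACG from position -125, which 24.6% of windows hold. HBEGF held 5 matches to GGGCGG and AREG held 1, in windows of which 45% hold at least 1. TGANTCA (7.71% of windows) and CACGTG (7.26%) were in none of the 3. A match describes letters, and binding was not measured.

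EREG (ENSG00000124882, chromosome 4 from 74365145 to 74388749, 5 exons) encodes epiregulin, a low-affinity EGFR ligand. It had 785 reads under DMSO and 1122 under MBZ in MDA-MB-231, and 429 and 7279 in SUM159. SUM159 with MBZ thus stood far above the other 3 libraries. EREG rose 13.6-fold in SUM159, a log2 change of 3.77 (interval 3.63 to 3.91), which placed it at rank 159 from the highest of 15674 genes. It also rose in MDA-MB-231, 1.73-fold, a log2 change of 0.79 (interval 0.65 to 0.92).

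AREG (ENSG00000109321, chromosome 4 from 74445136 to 74455005, 6 exons) encodes amphiregulin, the ligand through which EGFR acts in growth of the mammary ducts. It had 1363 reads under DMSO and 1193 under MBZ in MDA-MB-231, and 21 and 222 in SUM159. Both SUM159 libraries lay below both MDA-MB-231 libraries. AREG rose 8.45-fold in SUM159, a log2 change of 3.08 (interval 2.44 to 3.81) at rank 236. In MDA-MB-231 the interval of -0.033 to 0.19 included no change, and the log2 change was 0.35 with scaling by total counts.

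HBEGF (ENSG00000113070, chromosome 5 from 140332843 to 140346603, 6 exons) encodes the heparin-binding ligand, which binds EGFR and ERBB4. It had 1487 reads under DMSO and 1183 under MBZ in MDA-MB-231, and 330 and 1670 in SUM159. With MBZ, SUM159 passed the level of MDA-MB-231, at 27.1 RPKM against 21.4 and 20.8. HBEGF rose 4.06-fold in SUM159, a log2 change of 2.02 (interval 1.85 to 2.20). In MDA-MB-231 its log2 change of -0.057 (interval -0.17 to 0.054) became 0.21 with scaling by total counts.

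TGFA (ENSG00000163235, chromosome 2 from 70447284 to 70554193, 6 exons) encodes transforming growth factor alpha, a high-affinity EGFR ligand. It had 3183 reads under DMSO and 2338 under MBZ in MDA-MB-231, and 29 and 77 in SUM159. The lines differed far more than the treatments. TGFA rose 2.13-fold in SUM159, a log2 change of 1.09 (interval 0.46 to 1.76), and in MDA-MB-231 it was at -0.17 (interval -0.25 to -0.095), or at 0.093 with scaling by total counts.

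NRG1 (ENSG00000157168), the neuregulin of the family, had 1102 reads under DMSO and 1484 under MBZ in MDA-MB-231, and 98 and 479 in SUM159. It was higher with MBZ in both lines. The rise was 1.63-fold in MDA-MB-231, a log2 change of 0.70 (interval 0.59 to 0.82), and 3.92-fold in SUM159, a log2 change of 1.97 (interval 1.66 to 2.30). A neighbouring gene model on the same strand shares 189 exonic bases with NRG1 and has no row in the count table.

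BTC (ENSG00000174808), the gene of betacellulin, had 76 reads under DMSO and 64 under MBZ in MDA-MB-231, and 0 and 2 in SUM159. Its log2 change in MDA-MB-231, 0.025 with an interval of -0.48 to 0.52, included no change, and none was computed for SUM159. EPGN (ENSG00000182585), the gene of epigen, had 1 and 4 counts in MDA-MB-231 and 1 and 8 in SUM159. Its intervals of -1.06 to 7.89 and -0.22 to 8.16 included no change, so that no change was detectable at this depth. EGF itself, in the rest of the family, had 158 and 127 counts in MDA-MB-231 and 11 and 13 in SUM159. Of the other neuregulins, NRG2 had between 21 and 29 counts in the 4 libraries, NRG4 at most 6, and NRG3 had 0 in all 4.

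Summed over the 7 EGFR ligand genes, EGF included and NRG1 left out, the level was 93.0 RPKM under DMSO and 96.6 under MBZ in MDA-MB-231. In SUM159 it was 12.4 with DMSO and 96.4 with MBZ. SUM159 with DMSO stood alone below the other 3 libraries, and with MBZ the sum in SUM159 came to that of MDA-MB-231. The ratio of MBZ to DMSO was 1.04 in MDA-MB-231 and 7.76 in SUM159. The mixture of ligands was not the same. In MDA-MB-231, AREG made up 38.4% and 39.6% of the sum with DMSO and MBZ, TGFA 29.9% and 25.9%, HBEGF 23.0% and 21.5% and EREG 6.36% and 10.7%. In SUM159, EREG went from 36.5% to 64.1% and HBEGF from 53.6% to 28.1%, while AREG was at 6.21% and 6.80% and TGFA at 2.86% and 0.788%. Per length, MDA-MB-231 thus had a pool led by AREG and TGFA, and SUM159 one led by HBEGF with DMSO and by EREG with MBZ. This order rests on the exon lengths taken. As shares of reads, TGFA led in MDA-MB-231, at 45.1% and 38.8% with AREG at 19.3% and 19.8%, and EREG led in SUM159 with either treatment, at 52.3% and 78.5% with HBEGF at 40.2% and 18.0%. The nearness of the sums also rests on the lengths, since the reads of the 7 genes came to 7053 and 6031 in MDA-MB-231 and to 821 and 9271 in SUM159.

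**Figure D3:**
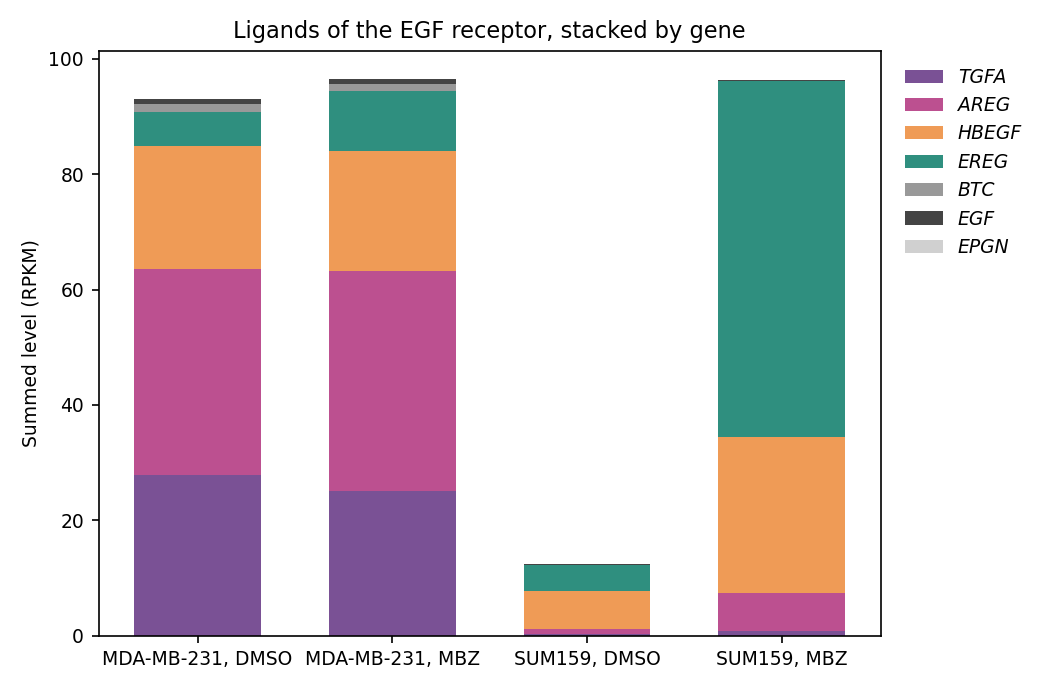
Summed level of the 7 EGFR ligand genes in each library, in RPKM, stacked by gene. The bars of both MDA-MB-231 libraries and of SUM159 with MBZ reach 93.0 to 96.6 RPKM, SUM159 with DMSO reach 12.4, and EREG makes up 64.1% of the bar of SUM159 with MBZ.

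The 4 cell division genes MKI67, CCNB1, TOP2A and CDK1 were chosen after their values were seen, so that they stand for no list. Each was higher with MBZ in SUM159, with log2 changes of 2.40, 2.88, 1.28 and 1.84, where 21.5% of all genes were higher. Each was lower in MDA-MB-231, at -1.18, -0.62, -1.01 and -1.20, where 15.8% of all genes were lower, and CCNB1 was there at -0.35, short of 1.5-fold, with scaling by total counts. MKI67 stood at 700.5 CPM (TMM over the 4 libraries) under DMSO and 313.8 under MBZ in MDA-MB-231, and at 53.4 and 281 in SUM159. The library of SUM159 with DMSO was thus the lowest of the 4 for MKI67 as it was for the EGFR ligands, and the part of the state of that culture in the ligand result was not tested. With 1 culture per condition, that state and an effect of MBZ cannot be told apart.

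A change shared by both lines was tested by edgeR's quasi-likelihood method, with line and treatment in the model, in which the response of the other line stands in for replicates. Of the 9 family genes tested, 0 were called for a shared rise, where 0.00621% of 16100 genes were called, and 0 for a shared fall, where 0% were. Over all genes this test called 1 rise and 0 falls, against 629 and 521 at an unadjusted p under 0.05 and 45 and 55 with DESeq2's Wald test. EREG had a shared log2 change of 2.32 (standard error 0.72, adjusted p = 0.609 by edgeR's quasi-likelihood test, Benjamini-Hochberg adjusted) and was higher with MBZ in both lines. Over the 4 alternatives its adjusted p, with Benjamini-Hochberg adjustment in edgeR's quasi-likelihood test or DESeq2, ran from 1.12e-05, when no filter on low counts was used, to 1.00 without the line in the model. NRG1, also higher in both lines, had 1.35 (standard error 0.38, adjusted p = 0.591 by edgeR's quasi-likelihood test, Benjamini-Hochberg adjusted), and its adjusted p over the same edgeR and DESeq2 alternatives ran from 0.0367 to 1.00.

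The lines themselves were compared over both treatments on the same model. Over all 16100 genes tested, 9.85% were higher in MDA-MB-231 and 11.6% in SUM159. BTC passed the filter on low counts only through MDA-MB-231, where it is high, with 76 and 64 counts against 0 and 2 in SUM159, so that it had to differ and is left out of the count. Of the 8 family genes that averaged 10 or more counts in each line, 4 were higher in MDA-MB-231, where 7.28% of 13728 such genes were, and 0 were higher in SUM159, where 7.87% were. TGFA differed most clearly, with a log2 difference of SUM159 minus MDA-MB-231 of -5.58 (standard error 0.44, adjusted p = 0.000588 by edgeR's quasi-likelihood test, Benjamini-Hochberg adjusted). AREG was at -3.84 (standard error 0.72, adjusted p = 0.0126), NRG1 at -2.31 (0.39, 0.00891) and ERBB3 at -2.87 (0.62, 0.0203) by edgeR's quasi-likelihood test, Benjamini-Hochberg adjusted. The receptors EGFR at -0.87 and ERBB2 at 0.092, and the ligands HBEGF at -0.60 and EREG at 1.16, did not pass, with adjusted p of 0.141, 0.857, 0.449 and 0.296 by edgeR's quasi-likelihood test, Benjamini-Hochberg adjusted. These differences pool both treatments, and for EREG, HBEGF and ERBB2 the direction turned between them. EREG was at 25.9 CPM in SUM159 against 33.8 in MDA-MB-231 with DMSO, and at 352.9 against 59.0 with MBZ. HBEGF was at 19.9 against 64.0 with DMSO and at 81.0 against 62.2 with MBZ. ERBB2 was higher in SUM159 with DMSO and lower with MBZ. The lines were kept in different media, which cannot be told apart from the lines, and each p rests on 2 libraries a line.

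The genes of ligand release, receptor brakes, signalling and output were described list by list. Of 12 genes of ligand release, 0 were higher and 3 lower with MBZ in MDA-MB-231, where 18.3% and 15.8% of all genes were. SUM159 had 2 higher and 3 lower, where 21.5% and 21.7% of all genes were. The median log2 changes of the 12 genes were -0.046 and -0.21. With scaling by total counts MDA-MB-231 had 1 higher and 2 lower, where 4408 and 1146 of 15142 genes were. SUM159 then had 2 higher and 1 lower, where 5135 and 2004 of 15674 genes were. TIMP3, an inhibitor of these proteases, was lower in both lines, from 48117 to 14299 counts in MDA-MB-231 and from 34258 to 18401 in SUM159, log2 changes of -1.48 and -1.21. ADAM17, the main protease for AREG, EREG, HBEGF and TGFA, had 806 and 905 counts in MDA-MB-231 and 956 and 745 in SUM159. It fell in SUM159, with a log2 change of -0.68 (interval -0.82 to -0.54; -0.37 and short of 1.5-fold with scaling by total counts), and in MDA-MB-231 it was at 0.44, short of 1.5-fold, or at 0.71 and past 1.5-fold with scaling by total counts. ADAM19 fell in MDA-MB-231, from 2943 to 745 counts, a log2 change of -1.71, and ADAM8 rose in SUM159, from 49 to 206 counts, a log2 change of 1.75. In SUM159 the ligand transcripts rose while those of ADAM17 and TIMP3 were lower. TIMP3 was lower in MDA-MB-231 too, where the ratio of MBZ to DMSO for the summed EGFR ligands was 1.04. A link of these transcripts to the ligands was not tested.

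Of 19 genes of receptor brakes and turnover, MDA-MB-231 had 2 higher and 3 lower, where 18.3% and 15.8% of all genes were, and SUM159 had 2 higher and 4 lower, where 21.5% and 21.7% were, among 18 compared in each line. The shares lower were thus near those of all genes, and the median log2 changes were 0.082 and -0.066. With scaling by total counts these became 6 and 0 in MDA-MB-231, where 4408 and 1146 of 15142 genes were higher and lower. In SUM159 they became 6 and 1, where 5135 and 2004 of 15674 genes were. The brakes thus had no direction that held under both scalings. LRIG1, a membrane protein that promotes breakdown of the receptors, went from 2154 to 1424 counts in SUM159, a log2 change of -0.91 (interval -1.01 to -0.82), and had 69 and 61 counts in MDA-MB-231. LRIG3 moved apart in the lines, with 0.94 in MDA-MB-231 and -0.78 in SUM159 on the log2 scale, the latter -0.48 and short of 1.5-fold with scaling by total counts. RNF41, a ubiquitin ligase for ERBB3, was at -0.63 in SUM159, or at -0.33 and short of 1.5-fold with that scaling, and in MDA-MB-231 it was at -0.046, or at 0.22 with scaling by total counts. The feedback inhibitor ERRFI1, which is among the genes that EGFR signalling raises, had 13458 and 11895 counts in MDA-MB-231 and 4564 and 7011 in SUM159. Its log2 changes of 0.094 and 0.30 were short of 1.5-fold in both lines, and that of SUM159 was 0.60, just past it, with scaling by total counts.

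Of 25 adaptors and kinases, MDA-MB-231 had 1 higher and 3 lower, where 18.3% and 15.8% of all genes were, and SUM159 had 2 higher and 7 lower, where 21.5% and 21.7% were, among 24 compared in each line. The median log2 changes were -0.29 and -0.21. With scaling by total counts MDA-MB-231 had 4 higher and 2 lower, where 4408 and 1146 of 15142 genes were. SUM159 then had 4 higher and 3 lower, where 5135 and 2004 of 15674 genes were. GAB1, a docking protein for PI3K, went from 242 to 114 counts in SUM159, a log2 change of -1.40 (interval -1.74 to -1.08). PIK3R1, the regulatory subunit of PI3K, moved in opposite directions, with 0.77 in MDA-MB-231 and -1.04 in SUM159. MAP2K1 and MAP2K2, which encode the kinases that activate ERK, moved apart in SUM159, at 0.75 and -1.16. In MDA-MB-231, MAPK3, the gene of an ERK, was at -1.02 and AKT1 at -0.93. SHC1 in SUM159 was at -0.87 and STAT3 at -0.79, and both were short of 1.5-fold with scaling by total counts, at -0.57 and -0.49.

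The 10 ERK output genes, which ERK signalling is known to raise, moved differently in the lines. In MDA-MB-231, 1 was higher and 5 were lower with MBZ, where 18.3% and 15.8% of all genes were, with a median log2 change of -0.54. In SUM159, 6 were higher and 0 lower, where 21.5% and 21.7% of all genes were, with a median of 0.78. With scaling by total counts MDA-MB-231 had 2 higher and 4 lower, where 4408 and 1146 of 15142 genes were. SUM159 then had 9 higher and 0 lower, where 5135 and 2004 of 15674 genes were. The summed level of the 10 ERK output genes was 5026 CPM (TMM over the 4 libraries) under DMSO and 3459 under MBZ in MDA-MB-231. In SUM159 it was 946 and 1798. The lines thus moved towards each other, and SUM159 with MBZ stayed below MDA-MB-231. DUSP6, an ERK phosphatase, had 9816 and 3970 counts in MDA-MB-231, and 210 and 940 in SUM159, log2 changes of -1.03 (interval -1.09 to -0.98) and 1.85 (interval 1.63 to 2.07). SPRY4, a feedback inhibitor of the pathway, was at -0.88 and 0.88 in the lines. The transcription factor ETV4 was at -1.03 and 0.73. EPHA4 went the other way, at 1.15 in MDA-MB-231 and -0.14 in SUM159, where the interval of -0.47 to 0.18 included no change. SPRY2 was above 0 in both lines, at 0.35 and 1.25. PHLDA1 rose in SUM159, from 2248 to 11584 counts, a log2 change of 2.05, and was at -0.17 in MDA-MB-231, or at 0.093 with scaling by total counts. The differences between the lines in the response were not tested, since no library is left to estimate the spread.

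**Figure D4:**
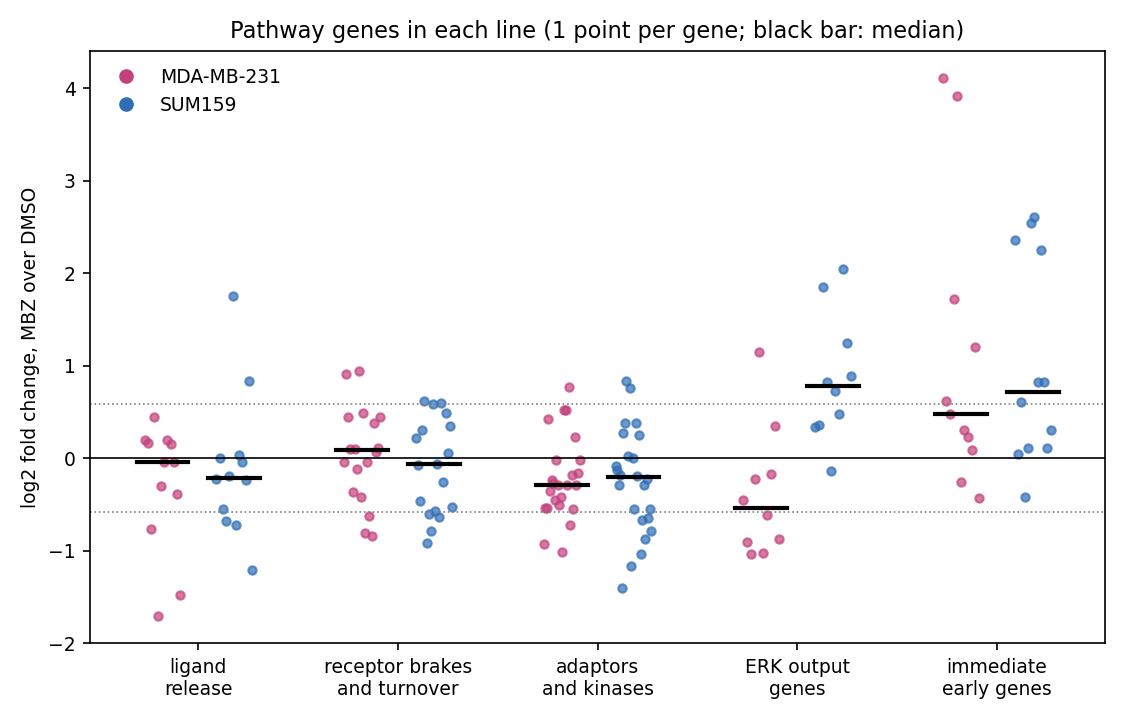
Log2 fold change with MBZ over DMSO of the genes of 5 pathway lists in each line, with 1 point per gene, a black bar at the median of the genes compared and 1.5-fold as dotted lines. The ERK output genes lie mostly below 0 in MDA-MB-231 (median -0.54) and above 0 in SUM159 (median 0.78), with PHLDA1 and EPHA2 of MDA-MB-231 changing sign with scaling by total counts.

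The 12 immediate early genes are ones that growth factors and stress both raise. Those compared, 11 in MDA-MB-231 and 12 in SUM159, were higher or short of 1.5-fold. In MDA-MB-231, 5 of the 11 compared were higher and 0 lower, where 18.3% and 15.8% of all genes were, with a median log2 change of 0.47. In SUM159, 7 of 12 were higher and 0 lower, where 21.5% and 21.7% were, with a median of 0.71. ATF3 rose in both, from 89 to 1276 counts in MDA-MB-231 and from 114 to 726 in SUM159, log2 changes of 4.11 and 2.35. FOSB was at 3.91 and 2.55. FOSL1, an AP-1 factor downstream of ERK, differed between the lines, with 9618 and 6646 counts in MDA-MB-231 and 585 and 4434 in SUM159. It rose in SUM159 with a log2 change of 2.61 (interval 2.48 to 2.73), and in MDA-MB-231 it was at -0.26, or at 0.0051 with scaling by total counts.

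For the 7 of 10 family genes that averaged 100 or more counts over the 4 libraries, which leaves out ERBB3, BTC and EPGN, the genes most like each were taken from 11152 genes at or above the same average, by the Euclidean distance between centred log2 CPM values. EGFR lay nearest to REPS2, at a distance of 0.0619, and ERBB2 to ZNRF2P1, at 0.0475. The distance is not scaled and tends to grow with the size of a gene's changes, so that it does not compare receptors with ligands. Among the ligands, STC1 was nearest to EREG at 0.612, HMGA2 to AREG at 0.644 and DDX39A to HBEGF at 0.165. UNC13D was nearest to TGFA at 0.253 and DOK3 to NRG1 at 0.269. STC1 went from 314 to 5929 counts in SUM159 and from 958 to 1254 in MDA-MB-231, log2 changes of 3.92 and 0.66. CXCL1, the next nearest to EREG by this distance, went from 35 to 952 and from 80 to 78, log2 changes of 4.44 and 0.24. CCN2, the third nearest to AREG by this distance, went from 65 to 395 counts in SUM159 and from 4564 to 3355 in MDA-MB-231, log2 changes of 2.29 and -0.17.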

How the data were processed

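RNA was sequenced from MDA-MB-231 and SUM159 with MBZ or DMSO, in 1 library per condition. Reads were aligned to GRCh38 by the authors using STAR 2.5, and they deposited whole-number counts per gene from HTSeq 0.6.1 (their own comparisons, made with edgeR 3.16.5, were not used). Annotation release and strand setting are not given in the sources used here. Symbols, exons and lengths are from GENCODE release 44, which matched 58207 of 58735 identifiers. Fold changes came from edgeR 4.0.16 under R 4.3.3 (TMM within a line, prior count 0.125). Shared changes and line differences used edgeR's quasi-likelihood test over the 16100 genes kept by filterByExpr, with 1 residual degree of freedom from the design and a common BCV of 0.323, with Benjamini-Hochberg adjusted p under 0.05 as the threshold. Genes named outside the family are label markers, list genes past 1.5-fold in a line and the 3 nearest genes of 7 family genes, with ERRFI1, CCND1, cell division genes and the genes that overlap EGFR and ERBB2 (EGFR-AS1, MIEN1 and PGAP3) chosen after their values were seen. Members and lists were chosen with earlier results of these data known. Alternatives were other scalings, prior counts, filters and fold sizes, DESeq2 1.42.0 and a model without line. Functions were tested on simulated data. Promoters are from RefSeq and were found for EGFR, ERBB2, AREG, EREG, HBEGF, TGFA, BTC and EPGN. Protein sequences were not used here.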

Additional observations from a re-analysis of the deposited data

Results flagged for a closer look

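Of 20 genes checked, the 10 family genes and the 10 ERK output genes, 10 were picked out for a closer look because the lines moved in opposite directions, each with a counting interval clear of 0. By the same rule 20% of the 13733 genes compared in both lines moved in opposite directions (19.1% with scaling by total counts). The 2 of 8 family genes so compared are near this share, and the 8 of 10 ERK output genes are above it. Genes with many reads meet the rule more readily, and the share covers all genes that averaged 10 or more counts. The 8 ERK output genes averaged 1700.5 to 13521.2 counts over the 4 libraries. The lists were also chosen with earlier results of these data known, so that the shares only describe the genes. The difference between the lines was not tested, since each condition has 1 library. Each difference is the log2 fold change in SUM159 minus that in MDA-MB-231.

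Of the family genes, EGFR differed by -0.96 and TGFA by 1.26. TGFA in MDA-MB-231 was at -0.17, or at 0.093 with scaling by total counts, so that its opposite directions rest on the scaling. EGFR was at 0.88 and -0.054 with that scaling, and since the interval in SUM159 (-0.12 to 0.013) then included no change, 0 of the 2 family genes met the rule under it.

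Of the ERK output genes, DUSP6 differed by 2.88, PHLDA1 by 2.22, SPRY4 by 1.76, ETV4 by 1.75, DUSP4 by 1.27, ETV5 by 1.10, EPHA2 by 1.06 and CCND1 by 0.80. With scaling by total counts PHLDA1 was at 0.093 and EPHA2 at 0.035 in MDA-MB-231, so that these genes were no longer opposite, while the other 6 met the rule under it too.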

How the results depend on the processing

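Scaling by total counts, without the TMM factors, by its construction shifted all genes of a line together, by 0.27 in MDA-MB-231 and 0.30 in SUM159 on the log2 scale. In MDA-MB-231 the log2 changes were then 0.88 for EGFR, -0.023 for ERBB2, 0.35 for AREG, 1.05 for EREG, 0.21 for HBEGF, 0.97 for NRG1 and 0.093 for TGFA, whose direction reversed. HBEGF and ERBB3 (-0.020, then 0.25) also changed sign there, from values whose intervals included no change. In SUM159 they were -0.054 for EGFR, -0.60 for ERBB2, 4.07 for EREG and 2.32 for HBEGF. Of all genes, MDA-MB-231 then had 4408 higher and 1146 lower and SUM159 had 5135 and 2004. With DESeq2's size factors EGFR in MDA-MB-231 was at 0.56. TMM over the 4 libraries and a prior count of 2 moved no value of the family genes beyond its counting interval, although a prior count of 2 took EPGN from 2.13 to 1.14 in MDA-MB-231 and from 2.56 to 1.56 in SUM159.

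At 2-fold in place of 1.5-fold, MDA-MB-231 had 1370 higher and 779 lower of 15142 genes, and SUM159 had 1996 and 1676 of 15674. Of the family genes 0 were then higher and 0 lower in MDA-MB-231, and 6 were higher and 0 lower in SUM159. With counting intervals that leave out no change in place of a fold size, MDA-MB-231 had 3 family genes higher and 2 lower, where 30.5% and 35.3% of all genes were, and SUM159 had 6 and 2, where 31.5% and 37% were. With a mean of at least 100 counts, 1114 genes were higher in MDA-MB-231, and 1422 higher and 2250 lower in SUM159, since fewer genes were compared. With no filter on low counts, MDA-MB-231 had 9089 higher and 5693 lower genes and SUM159 had 11750 and 6844.

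The shared test called 45 rises and 55 falls with DESeq2's Wald test, 153 and 145 with no filter on low counts, and 0 rises without the line in the model. The cause was not tested. TGFA had a shared log2 change of -0.11 without the line in the model, the reverse of 0.42 with it. The differences between the lines for TGFA, AREG, NRG1 and ERBB3 kept their direction and their side of the threshold under the 3 alternatives run. That of EREG passed with no filter on low counts, at 1.11 (adjusted p = 0.0361 by edgeR's quasi-likelihood test, Benjamini-Hochberg adjusted, 0.253 to 0.274 under the other alternatives). It pools opposite directions, since EREG was lower in SUM159 with DMSO and higher with MBZ. No paired analysis was possible because each group has 1 library, other than the shared test itself, whose line term pairs MBZ with DMSO within a line. The search for EGF-like repeats was not run. Depth limits BTC, EPGN and ERBB3 in SUM159, whose intervals are the widest of the family genes.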
